A study of Homo sapiens with 4 samples.

Results

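The EGR, NR4A and IER immediate early genes and SRF were examined in Jurkat cells, a human T-cell acute lymphoblastic leukemia line, after siRNA against LEF1. The members were EGR1, EGR2, EGR3, NR4A1, NR4A2, NR4A3, IER2, IER3, IER5 and SRF, and every probe set annotated to 1 of these symbols alone was used. This gave 18 of the 54613 probe sets tested and 9 of the 10 genes. EGR2 has no probe set under its symbol in the annotation used here and was not analysed. Cells transfected with 100 nM of a pool of LEF1 siRNAs (siLEF1) were compared with cells transfected with 100 nM of a pool of non-targeting siRNAs (siNT), each 24 h after transfection with a lipid reagent, on 2 arrays per group. The labels call the arrays of a group biological replicates and do not say that they came from separate cultures, so p-values measure the spread between these arrays. All cells were of 1 line and all had received siRNA and reagent, and non-transfected cells were not analysed here. Each value is a log2 signal normalized by the authors with RMA, a method that corrects background, brings the arrays to 1 distribution and summarizes each probe set.

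Immediate early genes are switched on within minutes of a signal at the cell surface, without new protein synthesis, and their mRNAs are short-lived. In T cells the antigen receptor reaches them through the ERK kinase cascade and calcium. ERK phosphorylates ELK factors that sit with SRF on CArG boxes (CC, a run of A or T, GG), while kinases downstream phosphorylate CREB on CRE sites. The EGR proteins are zinc finger transcription factors, the NR4A proteins are orphan nuclear receptors of which NR4A1 (Nur77) is a widely used marker of antigen receptor signaling, and the IER proteins regulate transcription, survival and the heat shock factor HSF1.

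Promoter sequences of 7 of the 10 genes were found in RefSeq (build GRCh38.p14), and EGR3, NR4A2 and IER3 had none in that table. Each window holds 250 bases before a transcript start and 50 from it on. Those of EGR1, SRF and NR4A3 are printed 5′ to 3′ on the strand of the gene because they hold the CArG or CRE matches among the measured members, with CArG boxes and the CRE core TGACGT (either strand) in capitals.
EGR1 (chr5:138465229-138465528, plus strand): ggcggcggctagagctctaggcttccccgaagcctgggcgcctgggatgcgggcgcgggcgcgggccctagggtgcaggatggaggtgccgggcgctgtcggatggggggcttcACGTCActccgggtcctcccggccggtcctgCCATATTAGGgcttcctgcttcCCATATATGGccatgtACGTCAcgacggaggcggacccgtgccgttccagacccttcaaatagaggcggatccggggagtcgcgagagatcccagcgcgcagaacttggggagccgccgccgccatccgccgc
SRF (chr6:43171019-43171318, plus strand): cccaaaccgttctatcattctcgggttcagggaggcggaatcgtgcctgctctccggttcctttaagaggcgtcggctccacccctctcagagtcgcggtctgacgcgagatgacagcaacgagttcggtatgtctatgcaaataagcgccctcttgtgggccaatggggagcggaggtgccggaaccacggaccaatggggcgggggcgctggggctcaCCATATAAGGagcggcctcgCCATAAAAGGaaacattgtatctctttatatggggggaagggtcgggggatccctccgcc
NR4A3 (chr9:99821635-99821934, plus strand): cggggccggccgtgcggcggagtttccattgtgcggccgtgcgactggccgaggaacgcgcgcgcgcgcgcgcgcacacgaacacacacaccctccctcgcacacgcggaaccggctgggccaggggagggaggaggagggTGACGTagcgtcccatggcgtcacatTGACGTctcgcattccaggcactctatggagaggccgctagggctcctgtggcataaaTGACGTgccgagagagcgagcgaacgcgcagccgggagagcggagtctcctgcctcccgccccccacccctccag
EGR1 had 2 CArG boxes, at -105 to -96 and -83 to -74 from the start, and a CRE core on either side of them. SRF had 2 CArG boxes in 1 of its 2 windows, at -30 to -21 and -10 to -1. NR4A3 had 3 CRE cores and no CArG box. CArG boxes occurred in 1.29% of all 35116 promoter windows and CRE cores in 7.98%. The ETS core CCGGAA, which ELK factors can bind, was found, among the measured members, in windows of NR4A1, IER2, IER5 and SRF (17.2% of all windows). EGR site cores, GGGGGCG or GTGGGCG, were found, among the measured members, in windows of NR4A3, IER2, IER5 and SRF (28.6% of all windows). The LEF1/TCF core CTTTG followed by any pair of A or T, read on both strands, had no match in the 8 windows of the measured members and was found in 13.8% of all windows. The string TATAAA, searched as a TATA box, matched in SRF alone of these genes (11.5% of all windows). That match lay downstream of the start, at 15 to 20 from it, on the strand opposite to the gene. The IER5 window holds TATATAAGG before the start, which the string TATAAA does not match. EGR2, which was not measured, had a CArG box at -71 to -62 and a CRE core at -55 to -50 in 1 window, EGR site cores in the other two, and a LEF1/TCF core at -144 to -138. All motifs were searched on both strands, and none of the matches in the windows of the measured members overlapped. A match is a string of letters and does not show that a factor binds there. Only these strings were searched, so a window without a match may still hold variants of a site.

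**Figure D1:**
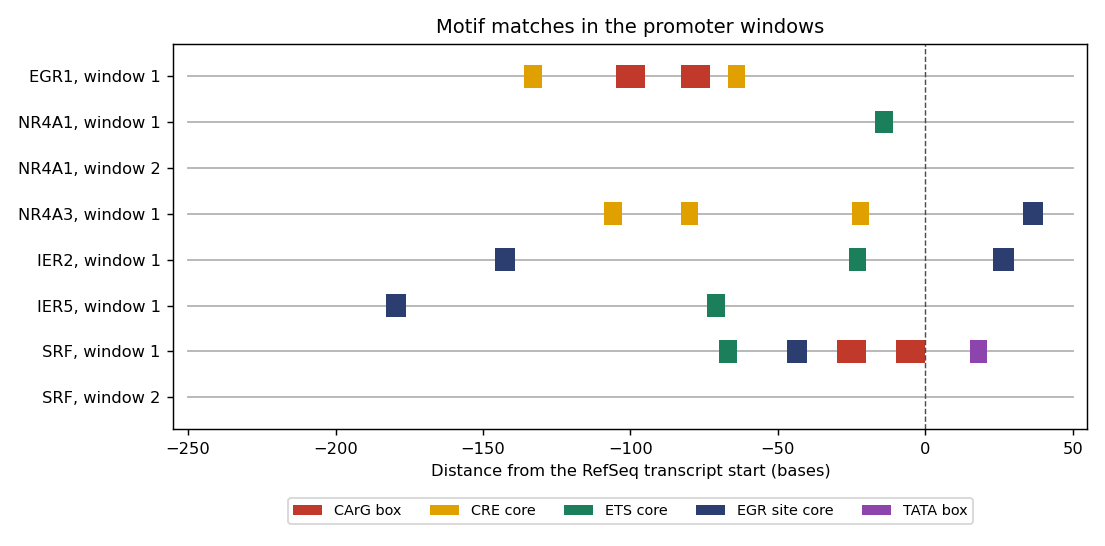
Matches of 5 motifs (colored bars) in the 8 promoter windows of the 6 measured members that have one, by distance in bases from the RefSeq transcript start (dashed line). CArG boxes lie in the windows of EGR1 and SRF and CRE cores in those of EGR1 and NR4A3.

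As a check of the knockdown, LEF1 was read first. The brightest of its 3 probe sets had log2 signals of 11.24 and 11.56 with siLEF1, against 12.30 and 11.92 with siNT, a log2 fold change of -0.71 (standard error, SE, 0.20, limma adjusted p = 0.191). The groups did not overlap, and the call was not reached. The middle and dimmest probe sets had log2 fold changes of -0.93 and -0.19 (limma adjusted p = 0.141 and 0.673). Pearson's r over all probe sets was 0.995 within siLEF1 and 0.990 within siNT, and with the siLEF1 pair it was 0.988 and 0.991 for siNT replicate 1 and 0.979 and 0.980 for siNT replicate 2. siNT replicate 1 was thus as close to a siLEF1 array as to the other siNT array. The 5′ minus 3′ log2 signal of ACTB, a measure of RNA integrity, was -1.08 and -1.55 with siLEF1, against -1.80 and -1.95 with siNT, and that of GAPDH was -0.34 and -0.32 with siLEF1, against -0.39 and -0.65 with siNT. Both measures were lowest in siNT replicate 2. Of 11 T-cell markers, 9 lay above the upper quartile of every array, among them CD3D, CD3E and LCK. Of 7 B-cell and 5 myeloid markers measured, 4 and 2 lay below the median of every array, among them MS4A1, PAX5, LYZ and MPO. The B-cell markers BLK, CD79A and CD79B and the myeloid marker CSF1R lay above the median of every array. The myeloid marker ITGAM lay above it in every array but siNT replicate 2, and CD14 below it in every array but that. Summed linear signals of the B-cell list were 305 to 353 with siLEF1, against 310 to 334 with siNT. Those of the myeloid list were 105 to 123 with siLEF1, against 128 to 144 with siNT. In 2 of the 5 myeloid markers, CD14 and LYZ, both siLEF1 arrays lay below both siNT arrays, where 21.2% of all probe sets did. Their log2 fold changes were -0.88 and -0.94, neither was called, and CD14 was highest in siNT replicate 2. Of 4 erythroid markers 0 were called, beside 0.183% of all probe sets called lower. In KLF1, HBB and ALAS2 both siLEF1 arrays lay below both siNT arrays, 3 of the 4, where 21.2% of all probe sets did. Their log2 fold changes were -1.46, -0.49 and -0.49, and siNT replicate 1 was their highest array. The part of the myeloid and erythroid markers in the results below was not tested. The same sum over the T-cell markers was 17378 and 17941 with siLEF1, against 16950 and 12795 with siNT. It was lowest in siNT replicate 2, in which 0 of the 11 markers had a higher signal than in siNT replicate 1.

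Most members had lower values in siLEF1 cells, SRF had higher ones, and none of the differences passed the test. NR4A2 had the largest difference, with both siLEF1 arrays below both siNT arrays in all 3 of its probe sets. EGR1 and NR4A3 followed. In the brightest probe set of every gene but SRF, siNT replicate 2 was the highest array. Calls required more than 2-fold and an adjusted p below 0.05 (limma, Benjamini-Hochberg over all 54613 probe sets). Of the 18, 0 were called lower and 0 higher, where 0.183% and 0.0238% of all probe sets were, 0.207% in both directions. The smallest adjusted p was 0.0926. At an unadjusted p under 0.05, 9 of the 18 were lower and 1 was higher, beside 8.79% and 6.85% of all probe sets. In value 14 were below 0 and 4 above, with a median log2 fold change of -0.74, and the median of all probe sets was 0.04. In 6 the value was more than 2-fold lower, as in 2.34% of all. Both siLEF1 arrays lay below both siNT arrays in 12 (21.2% of all probe sets did) and above them in 2 (27.4% of all), both of SRF. Bulk RNA cannot tell fewer cells with a transcript from less transcript per cell.

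**Figure D2:**
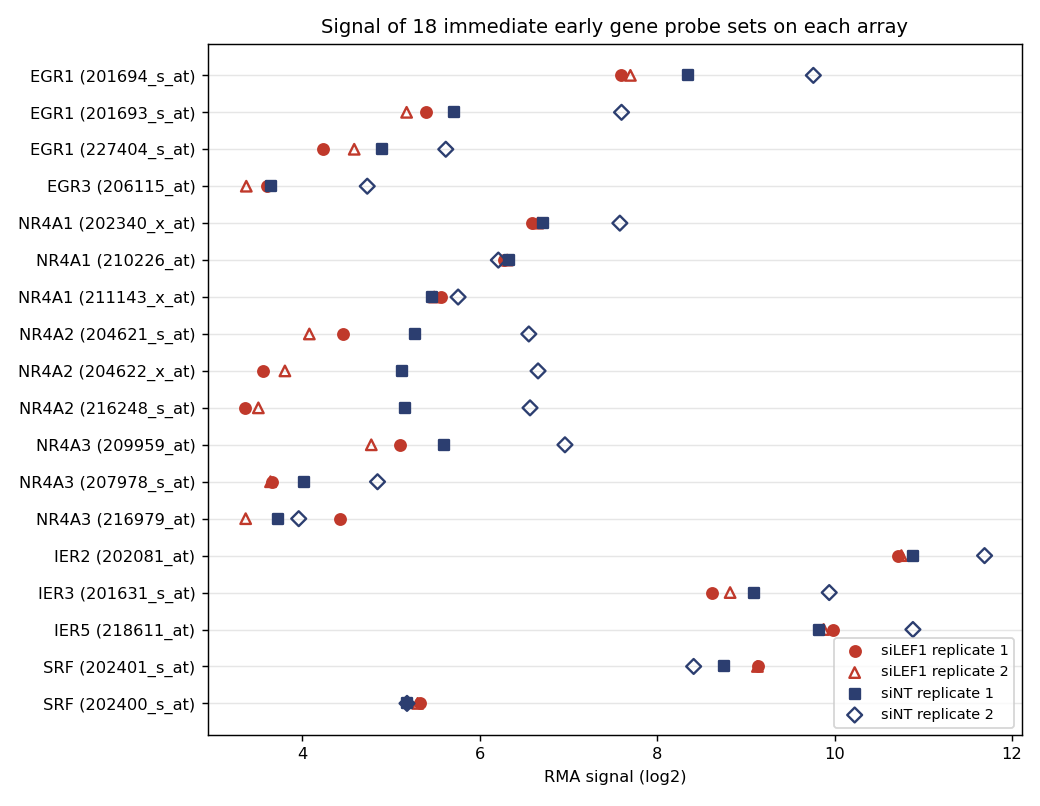
Log2 RMA signal (horizontal axis) for each of the 18 probe sets of 9 genes by array, with siLEF1 replicates 1 and 2 as circles and triangles, siNT ones as squares and diamonds. siNT replicate 2 is the highest array in 14 of the 18, and in the 3 NR4A2 probe sets both siNT arrays stand above both siLEF1 arrays.

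SRF is the MADS box factor that carries growth factor signals to EGR1 and other immediate early genes and also drives cytoskeletal genes. The gene lies at chr6:43171269-43181506 (GRCh38.p14, as all positions here). The brighter of its 2 probe sets, 202401_s_at, had log2 signals of 9.14 and 9.13 with siLEF1, against 8.75 and 8.41 with siNT. Both siLEF1 arrays were above both siNT arrays, and siNT replicate 2 was the lowest. The log2 fold change was 0.55 (SE 0.17, 95% interval 0.14 to 0.97, limma adjusted p = 0.215), and 0.43 with arrays centred on housekeeping genes. In the dimmer one, 202400_s_at, the signals were 5.32 and 5.30 with siLEF1, against 5.18 and 5.18 with siNT, and the log2 fold change of 0.13 became 0.00 with that centring. The promoters of EGR1 and SRF both carry CArG boxes, and the values of their brightest probe sets lay on opposite sides of 0. Neither value passed, and a link between the motif and these values was not tested.

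EGR1, the best studied zinc finger factor of the immediate early response, lies at chr5:138465479-138469303 and was read by 3 probe sets. The brightest, 201694_s_at, had log2 signals of 7.60 and 7.70 with siLEF1, against 8.34 and 9.76 with siNT. The siLEF1 arrays were nearly alike and below both siNT arrays, which were more than 2-fold apart. The log2 fold change was -1.40 (SE 0.43, 95% interval -2.43 to -0.37, limma adjusted p = 0.209), a 2.65-fold lower signal, which did not pass. The middle probe set, 201693_s_at, had signals of 5.39 and 5.18 with siLEF1, against 5.71 and 7.60 with siNT. Here siNT replicate 1 was close to the siLEF1 arrays and siNT replicate 2 stood apart. In the dimmest one, 227404_s_at, the signals were 4.24 and 4.58 with siLEF1, against 4.90 and 5.62 with siNT. The log2 fold changes of these 2 probe sets were -1.37 and -0.85. EGR3, a relative that with EGR2 restrains T-cell activation (chr8:22687659-22693480), had 1 dim probe set, 206115_at, with signals of 3.61 and 3.37 with siLEF1, against 3.65 and 4.73 with siNT. All 4 lay under the medians of their arrays, 4.84 to 4.85, so the size of the difference, -0.70 on the log2 scale (limma adjusted p = 0.393), is uncertain. It was -0.16 without siNT replicate 2 and -1.24 without siNT replicate 1.

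NR4A2 (Nurr1, chr2:156324437-156332721) had 3 probe sets, 2 with IDs that end in _s_at and 1 in _x_at. Both endings mark probe sets whose probes may not be specific to 1 transcript. The brightest, 204621_s_at, had log2 signals of 4.46 and 4.08 with siLEF1, against 5.27 and 6.55 with siNT. In 204622_x_at the signals were 3.56 and 3.80 with siLEF1, against 5.12 and 6.66 with siNT, and in 216248_s_at they were 3.35 and 3.50 with siLEF1, against 5.16 and 6.57 with siNT. In each of the 3, every siLEF1 signal was under the median of its array and every siNT signal above it. The log2 fold changes were -1.64, -2.21 and -2.44, with standard errors of 0.40, 0.46 and 0.42. The last of these, a 5.41-fold lower signal, had a 95% interval of -3.46 to -1.41 and the smallest adjusted p of all members (0.0926 from limma). These probe sets are annotated to the same gene and are not independent of each other.

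NR4A3 (NOR1, chr9:99821885-99866891), whose promoter holds 3 CRE cores, had log2 signals of 5.10 and 4.78 with siLEF1, against 5.60 and 6.96 with siNT in its brightest probe set, 209959_at. The groups did not overlap, and siNT replicate 1 lay nearer to the siLEF1 arrays than to siNT replicate 2. The log2 fold change was -1.34 (SE 0.42, 95% interval -2.36 to -0.32, limma adjusted p = 0.218). A dim probe set, 207978_s_at, went the same way, with 3.66 and 3.64 with siLEF1, against 4.02 and 4.85 with siNT. The last, 216979_at, had signals of 4.42 and 3.36 with siLEF1, against 3.73 and 3.96 with siNT, all under the medians of their arrays. It was the only member probe set whose siLEF1 replicates were more than 2-fold apart, and the groups overlapped in it.

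NR4A1 (Nur77, chr12:52022832-52059503) was read by 3 probe sets that differed among themselves. The brightest, 202340_x_at, had signals of 6.59 and 6.66 with siLEF1, 6.71 in siNT replicate 1 and 7.58 in siNT replicate 2. Only siNT replicate 2 stood apart. Its log2 fold change was -0.52 (SE 0.28, 95% interval -1.21 to 0.16, limma adjusted p = 0.439). In the other two the groups overlapped, with signals of 6.28 and 6.31 with siLEF1, against 6.33 and 6.21 with siNT in 210226_at, and log2 fold changes of 0.02 there and -0.08 in 211143_x_at (standard errors 0.15 and 0.17). All 3 signals of NR4A1 in siNT replicate 1 were within 0.2 of the siLEF1 means.

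The IER genes, 1 probe set each, lay above the upper quartile of every array. IER2, a short nuclear protein (chr19:13150411-13154911, 202081_at), had log2 signals of 10.71 and 10.75 with siLEF1, against 10.89 and 11.69 with siNT. IER3 (IEX-1), which modulates apoptosis (chr6:30743199-30744547, 201631_s_at), had 8.62 and 8.82 with siLEF1, against 9.09 and 9.94 with siNT. IER5, a coactivator of HSF1 (chr1:181088700-181092900, 218611_at), had 9.98 and 9.88 with siLEF1, against 9.82 and 10.88 with siNT. In all 3 genes siNT replicate 2 was the highest array, and in IER5 siNT replicate 1 was the lowest, so the groups overlapped. The log2 fold changes were -0.56 for IER2, -0.80 for IER3 and -0.42 for IER5, with standard errors of 0.27, 0.28 and 0.33 and adjusted p of 0.385, 0.265 and 0.600 from limma. Without siNT replicate 2, the value of IER5 was 0.11.

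**Figure D3:**
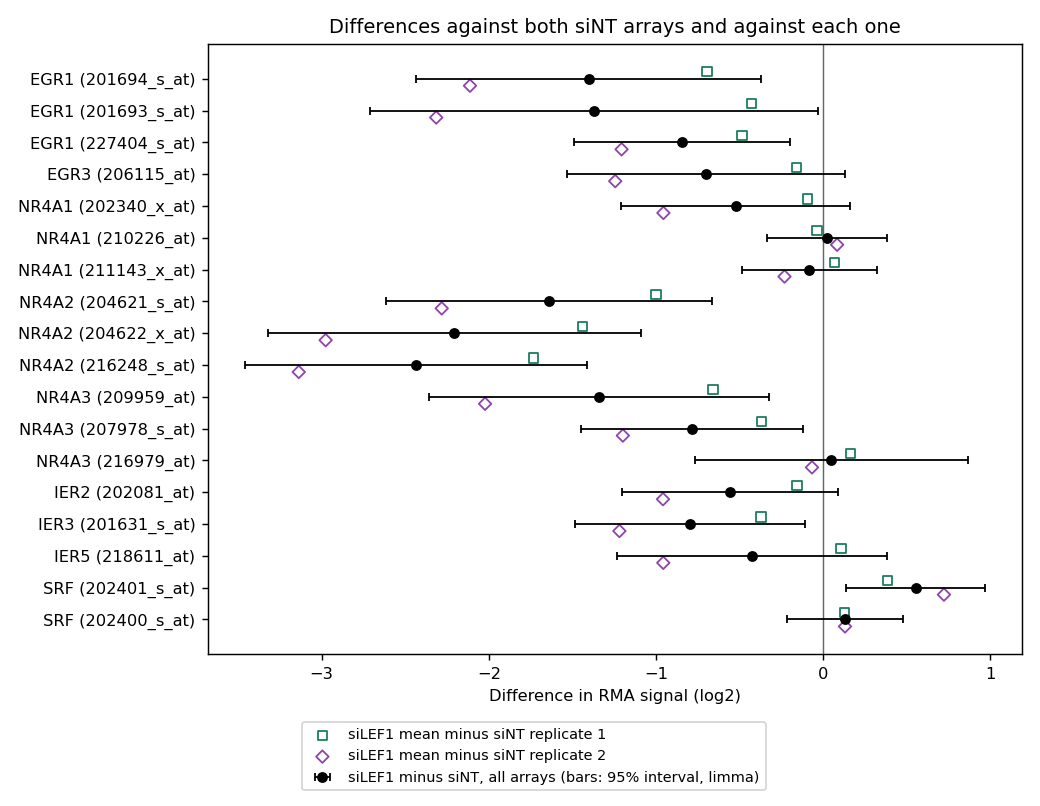
Difference in log2 signal (horizontal axis) of the 18 probe sets, siLEF1 minus siNT with its 95% interval (black), and the siLEF1 mean minus siNT replicate 1 (squares) or minus siNT replicate 2 (diamonds). Against siNT replicate 1 NR4A2 reaches -1.73, while the brightest probe sets of EGR3, NR4A1, IER2 and IER5 lie within 0.2 of 0.

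The siNT arrays differed from each other in these genes more than the siLEF1 arrays did. siNT replicate 2 had a higher signal than siNT replicate 1 in 15 of the 18 probe sets, as in 51.2% of all probe sets, and by more than 2-fold in 8, as in 0.831% of all, and lower by more than 2-fold in 0, as in 0.833% of all. It was the highest array in 14, as in 29.3% of all. The median of this difference was 0.86 for the members and 0.01 for all probe sets, and the median absolute difference was 0.86 and 0.21. Between siLEF1 replicates the median absolute difference was 0.13 for the members and 0.15 for all probe sets. The middle EGR1 probe set ranked 39 among all 54613 by how far siNT replicate 2 exceeded siNT replicate 1, NR4A2 204622_x_at 98 and the brightest EGR1 probe set 136, while the brighter SRF probe set ranked 46349. With 1 array on each side these are descriptions of the siNT arrays. siNT replicate 2 also had the lowest 5′ minus 3′ signals and the lowest sum of T-cell markers, as given above, and the part of these in the result was not tested.

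**Figure D4:**
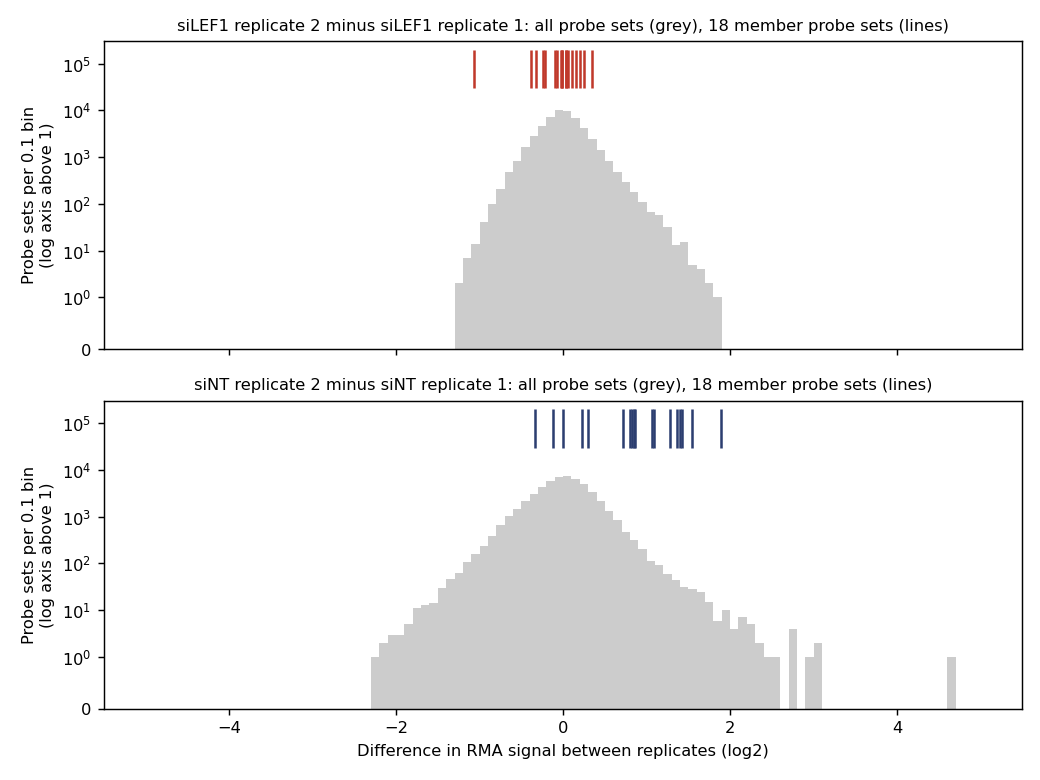
Number of probe sets (vertical axis, logarithmic above 1) by difference in log2 signal between replicate 2 and replicate 1 of siLEF1 cells (top) and of siNT cells (bottom), with the 18 member probe sets as lines. In siNT cells 8 of the lines lie above 1, in siLEF1 cells none lies above 1 and 1, of NR4A3, lies below -1.

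Leaving out siNT replicate 1 changed the count of members called, and leaving out siNT replicate 2 did not. Without siNT replicate 1, limma called 8 member probe sets lower, beside 2.36% of all probe sets, the spread of the single siNT array being taken as that of the siLEF1 pair. They were the 3 of NR4A2, the brightest and middle of EGR1, 209959_at and 207978_s_at of NR4A3, and that of IER3. Their log2 fold changes ran from -3.14 (NR4A2 216248_s_at, limma adjusted p = 0.0313) to -1.20 (NR4A3 207978_s_at, limma adjusted p = 0.0448). Without siNT replicate 2 none was called, as was none of all probe sets (6232 of them had an unadjusted p under 0.05), and the median over the members was -0.26. In that fit NR4A2 216248_s_at still had a log2 fold change of -1.73 (SE 0.16, limma adjusted p = 0.0983), and 204622_x_at had -1.44, while the brightest of EGR1, NR4A3 and IER3 had -0.69, -0.66 and -0.37. Both siLEF1 arrays were below siNT replicate 1 in 13 of the 18 probe sets, as in 30.8% of all. With the replicate number as a block 2 were called lower, 204622_x_at and 216248_s_at of NR4A2, beside 1.79% of all probe sets.

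Other genes of the immediate early response were set beside the members as a list of 41 genes, each read by its brightest probe set. Of the 40 measured, 1 was called lower and 0 higher, 35 had values below 0, and their median log2 fold change was -1.15. Against siNT replicate 1 alone the median was -0.39, and 32 of the 40 were higher in siNT replicate 2 than in siNT replicate 1, 15 of them by more than 2-fold. In 31 of the 40 both siLEF1 arrays lay below both siNT arrays, as in 21.2% of all probe sets, and the 1 call stands beside 0.183% of all. The called gene was DUSP6, the ERK phosphatase that ERK induces, with log2 signals of 6.30 and 6.53 with siLEF1, against 7.96 and 7.87 with siNT. Unlike EGR1 its siNT arrays were nearly alike, and its log2 fold change was -1.50 (SE 0.16, limma adjusted p = 0.0454). The value was -1.54 without siNT replicate 2 and -1.39 and -1.61 without siLEF1 replicates 1 and 2. Each of these fits left 1 array in a group and ended all calls on the arrays, that of DUSP6 included. Of the other 2 probe sets of DUSP6, 208892_s_at was also called with all arrays. Next by p came TRIB1, a pseudokinase gene, then PHLDA1, then CD69, an early marker of T-cell activation. Their log2 fold changes were -2.06, -2.50 and -1.26 (limma adjusted p = 0.0562, 0.0673 and 0.0692). In TRIB1 and CD69 siNT replicate 2 was lower than siNT replicate 1, by 0.73 and 0.38 in log2 signal, while in PHLDA1 it was higher by 1.11, as in most of the list. At the other end FOS, partner of JUN in AP-1, read 5.04 and 4.91 with siLEF1 on the log2 scale, 5.24 in siNT replicate 1 and 8.30 in siNT replicate 2. FOS, outside the naming rule, was chosen after its values were seen, as the list's clearest case of a single high array after GADD45B.

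Around the EGR genes, EGR4, IER5L and the EGR corepressor genes NAB1 and NAB2 had log2 fold changes of -0.62, -0.65, 0.38 and -0.24, and none was called. IER5L and EGR4 were high on siNT replicate 2, by 1.21 and 1.06 above siNT replicate 1. In a list of 8 genes that EGR factors induce or control in T cells, 1 was called lower and 0 higher (0.183% and 0.0238% of all probe sets), with a median log2 fold change of -0.30. The called gene was CBLB, the ubiquitin ligase that damps antigen receptor signaling, with log2 signals of 6.95 and 7.06 with siLEF1, against 8.60 and 8.94 with siNT. Its log2 fold change was -1.76 (SE 0.17, limma adjusted p = 0.0404). The value was -1.60 without siNT replicate 2 and -1.71 and -1.82 without siLEF1 replicates 1 and 2. Each of these fits left 1 array in a group and ended all calls on the arrays, that of CBLB included. The calls of DUSP6 and CBLB were also lost with a filter on dim probe sets (limma adjusted p = 0.0655 for each) and without moderation (0.598 for each). The other 2 probe sets of CBLB, which are dimmer, had log2 fold changes of -0.97 and -0.09 and were not called. ITCH, another ubiquitin ligase, had a log2 fold change of -1.36 (limma adjusted p = 0.0956), ID3, an inhibitor of E proteins, one of -0.55 and NDRG1 one of -0.35, and none of these passed. FASLG, TNFRSF9 and LAG3 were dim on every array, with signals of 3.43 to 4.36.

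The machinery that acts on these genes was not called in any list. Of the 5 SRF partner genes 0 were called, with a median log2 fold change of 0.15, and ELK4, MRTFB and MRTFA had 0.55, 0.46 and -0.32. Of 16 kinase, RAS and CREB genes upstream of SRF and CREB 11 were measured, 0 were called and 10 had values above 0, with a median of 0.19. HRAS and RPS6KA3, which encodes an ERK-activated kinase, had the smallest p (log2 fold changes of 0.41 and 0.63, limma adjusted p = 0.296 and 0.297). Of 11 measured cytoskeletal targets of SRF, 0 were called and all had values above 0, with a median of 0.22 and 0.59 for TAGLN2. The 10 housekeeping genes measured had a similar median of 0.21, with 6 values above 0 and 4 below. Against siNT replicate 1 alone the medians were 0.01 for the cytoskeletal targets, 0.11 for the kinase list and 0.06 for the SRF partners, and TAGLN2 had 0.31. With the arrays centred on housekeeping genes every log2 fold change moved down by 0.13, which left 7 of 11 kinase genes, 7 of 11 cytoskeletal targets, 3 of 5 SRF partners and 6 of 12 genes of the calcium list above 0. Among 12 genes of calcineurin, NFAT and MEF2, the route to NR4A1 in T cells, 0 were called and 10 had values above 0. MEF2C had log2 signals of 4.32 and 4.26 with siLEF1, against 7.23 and 5.91 with siNT, a log2 fold change of -2.28 (limma adjusted p = 0.0934), and MEF2A had a log2 fold change of -0.81 (limma adjusted p = 0.117). In MEF2C siNT replicate 1 was the highest array.

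**Figure D5:**
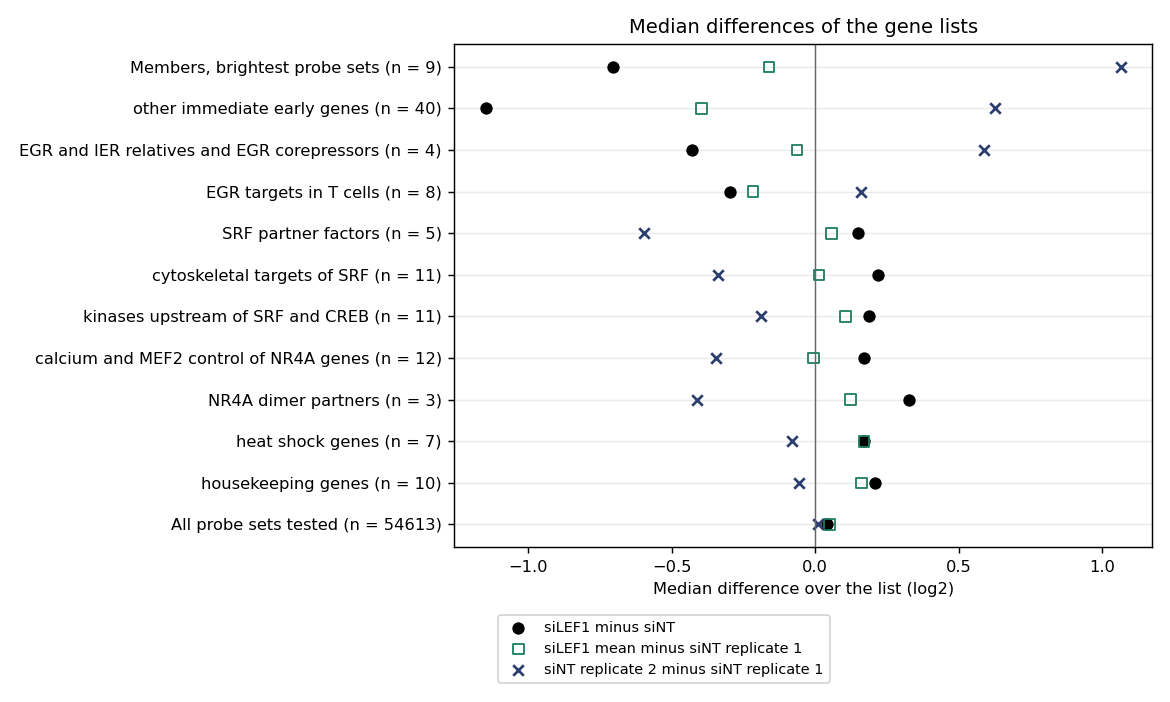
Median difference in log2 signal (horizontal axis) over each gene list, with the number of genes measured, for siLEF1 minus siNT (circles), the siLEF1 mean minus siNT replicate 1 (squares) and siNT replicate 2 minus siNT replicate 1 (crosses). The members and the other immediate early genes have medians of -0.70 and -1.15. The lists of SRF partners, kinases and cytoskeletal targets have medians of 0.15 to 0.22, and the housekeeping genes 0.21. Against siNT replicate 1 the members and the other immediate early genes are at -0.16 and -0.39. The SRF partners, kinases and cytoskeletal targets are there at 0.01 to 0.11 and the housekeeping genes at 0.16.

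The genes whose pattern over the 4 arrays was most like that of 3 members were found by Euclidean distance. It was taken between log2 signals centred on each gene's mean, over the brightest probe sets of 19775 genes. The members were left out of the ranking, so each rank here is among the other genes and likeness between members is not shown. Nearest to EGR1 was CCNL1, a cyclin of the splicing machinery, at a distance of 0.05, with signals of 9.32 and 9.36 with siLEF1, against 10.05 and 11.47 with siNT. KLF4, ZNF513, FOXD3 and the splicing kinase gene CLK1 followed at 0.14 to 0.18. JUNB, an AP-1 subunit, was the nearest gene to IER2 at a distance of 0.03 and the fifth nearest to NR4A1 at 0.08. RPS6KB1, DAGLB, SPRY2 and OSR2 followed it for IER2, and OSR2, DAGLB, ZNF646 and COQ4 came before it for NR4A1. With 4 arrays such likeness describes these arrays and is no measure of a shared control.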

How the data were processed

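RNA was labeled with the 3' IVT Express kit and hybridized to Affymetrix HG-U133 Plus 2.0 arrays. The authors extracted signals with Affymetrix Expression Console 1.1 and ran RMA. The authors deposited 1 log2 value for each probe set on each array, unfiltered. Whether arrays of non-transfected cells shared the RMA run is not given in the sources used here. RMA equalizes the arrays, so a shift of most genes in 1 direction would be removed.

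After removal of 62 control probe sets, siLEF1 minus siNT was tested on 54613 probe sets in limma 3.58.1 under R 4.3.3 (a linear model with eBayes, 2-sided, 2 residual and 4.30 prior degrees of freedom), with Benjamini-Hochberg adjustment. Both call thresholds, adjusted p 0.05 and 2-fold, are those of the study's methods, which compared 3 groups. Symbols came from the platform annotation, updated by Entrez number (41043 of 41097 found). A total of 41091 probe sets had 1 symbol, 1801 had several and 11721 had none.

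The members and lists were chosen with earlier results of these data known. Each listed gene was read by its brightest probe set (highest mean over the 4 arrays). Named were LEF1, all members and up to 4 genes per list by p, which are given where a list is described. The 5 genes outside the members nearest in pattern to EGR1, NR4A1 and IER2 were also named, and exceptions are marked. The cell type markers and FASLG, TNFRSF9 and LAG3 were named outside this rule, after their values were seen. As alternatives, probe sets with a mean signal below 6 were dropped (19383 left), eBayes was run trended and robust or left out, replicate numbers entered as a block, and the others were centring on array medians or on 10 of 14 listed housekeeping genes, removal of probe sets ending in _x_at or _s_at (39114 left), 1 probe set per gene, other fold thresholds, and each array left out. The model was tested on simulated data.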

Additional observations from a re-analysis of the deposited data

How the results depend on the processing

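Of the 18 probe sets, 0 were called lower and 0 higher with all arrays, and the count stayed at 0 in both directions with the filter at a mean log2 signal of 6 (7 members left), the trended and robust eBayes, no moderation, both centrings, removal of _x_at and _s_at probe sets (6 left), 1 probe set per gene and fold thresholds of 1.5 or none. Leaving out 1 array gave 0 to 8 members called lower (8 without siNT replicate 1) and a median log2 fold change of -1.20 to -0.26. With the replicate number as a block 2 members were called lower, both of NR4A2 (limma adjusted p = 0.0100 and 0.00670), and 977 of all probe sets were. The labels do not say that a number marks a shared batch, and across probe sets the differences between replicates 2 and 1 correlated at -0.15 between the groups. The crossed pairing, chosen after seeing the data, called 3 members and 763 of all probe sets lower. Over all probe sets the lower calls numbered 100, and 4 with the filter, 0 without moderation, 465 with housekeeping centring and 171 with 1 probe set per gene. Among the brightest probe sets of the members, IER5 alone changed sign, to 0.11 without siNT replicate 2 and -0.96 without siNT replicate 1. Signals near the lower part of the arrays, as in EGR3, NR4A2 and the dimmer NR4A3 probe sets, limit how well the size of a difference is known, and 2 arrays per group limit all of them.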

Other observations

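The heat shock list had 7 of its 10 genes measured alone, of which 0 were called, with a median log2 fold change of 0.17 and values of 0.49 for the chaperonin gene HSPE1, -0.41 for BAG3, 0.27 for HSPD1 and 0.19 for DNAJB1. The probe sets shared by the stress-induced HSPA1A and HSPA1B genes stood apart between the siNT arrays. One of them had the largest excess of siNT replicate 2 over siNT replicate 1 of all 54613 probe sets, 4.67 in log2 signal, with signals of 5.64 and 5.29 with siLEF1, against 3.15 and 7.81 with siNT. Both siLEF1 arrays lay between the siNT arrays, and the log2 fold change was -0.01 (SE 1.33, limma adjusted p = 0.998). Another, also shared with HSPA1L, ranked 27 by that excess, with signals of 6.02 and 5.72 with siLEF1, against 5.72 and 7.72 with siNT. In the last, ranked 166, the signals were 5.51 and 5.50 with siLEF1, against 5.96 and 7.32 with siNT, and both siLEF1 arrays lay below both siNT arrays (log2 fold change -1.14, limma adjusted p = 0.269). Probe sets of GADD45B, a stress-induced growth arrest gene, ranked 2, 5 and 6, FOS 3, the growth factor gene FGF18 4, 9 and 11, and ARC 7. These genes were chosen after their values were seen.

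The NR4A dimer partners RXRA, RXRB and RXRG had log2 fold changes of 0.49, -0.32 and 0.33, and 0 of the 3 were called. RXRG lay under the median of every array, with signals of 3.10 and 3.09 with siLEF1, against 2.97 and 2.56 with siNT. MYC, an immediate early gene in many cells, had log2 signals of 11.42 and 11.15 with siLEF1, against 10.61 and 10.20 with siNT, and ZFP36L2, an mRNA decay factor, 10.84 and 10.75 with siLEF1, against 10.22 and 10.08 with siNT. MYC and ZFP36L2 had both siLEF1 arrays above both siNT arrays, as SRF did. Their log2 fold changes were 0.88 and 0.65 (limma adjusted p = 0.139 and 0.144), and neither passed. In the list of 40 immediate early genes measured 4 lay so, where 27.4% of all probe sets did. The others were KLF2 and DUSP2 (log2 fold changes of 0.25 and 0.29). MYC, ZFP36L2, KLF2 and DUSP2 were chosen after their values were seen.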
